A study of Mus musculus with 4 samples.

Results

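Mitochondrial and peroxisomal beta-oxidation enzymes were examined in the liver of ROCK1 KO mice and control mice, by the probes of the intensity table annotated to Cpt2, Acadm, Acadl, Acadvl, Hadha, Hadhb, Acaa2 or Ehhadh. Of these 8 genes, 7 had a probe, and together they had 13 of the 25697 probes on the array, where 16593 genes carried a symbol. The number of probes was 4 for Acaa2, 3 for Acadl, 2 for Acadm and 1 each for Acadvl, Cpt2, Ehhadh and Hadhb. No probe carried the symbol Hadha, so that gene is not analysed here. The groups were liver-specific ROCK1 KO (2 arrays) and control (2 arrays), and each array, an Illumina bead array read in 1 colour, held RNA of whole liver. All mice ate normal chow for 16 weeks at 22 to 24 °C with 14 h of light and 10 h of dark. The control samples are called both control and WT in the labels. Neither the driver of the deletion nor the strain, sex or age of the mice is stated there. Whether each array holds a different animal is not stated either. The p-values below therefore describe array-to-array spread, which may be technical, and with 4 arrays precision is low.

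Beta-oxidation shortens fatty acyl-CoA by an acetyl unit per turn, through dehydrogenation, hydration, a second dehydrogenation and thiolytic cleavage. In mitochondria, long-chain acyl groups enter as carnitine esters, the membrane-bound trifunctional protein takes the long-chain intermediates, and soluble enzymes finish the shorter ones. Peroxisomes run a parallel spiral on very long-chain and dicarboxylic fatty acids, and in mouse liver many genes of both spirals are targets of the nuclear receptor PPAR-alpha.

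Hadhb, which encodes the thiolase subunit of the trifunctional protein, was 2.34-fold lower in KO liver, and its fall kept its call when any 1 array was left out. Ehhadh, which encodes the peroxisomal bifunctional enzyme, and 1 of the 2 bright probes of Acadl, the long-chain acyl-CoA dehydrogenase gene, were each 1.62-fold lower. Of the 13 probes, 3 were called lower, 0 higher and 10 were not called (limma with Benjamini-Hochberg adjustment over all probes, adjusted p under 0.05). The unadjusted limma p was under 0.05 for 5: the 3 called, Acadl probe ILMN_2735084 at background and Acaa2 probe ILMN_2704822, higher in KO. The share of all probes with such a p was not computed, so no weight is put on the 5. The count of 3 was 1, Hadhb alone, without control replicate 1, without control replicate 2 or without KO replicate 1, where Ehhadh and the Acadl probe lost their calls. Over all probes on the array 8.02% were called, 4.32% lower and 3.69% higher. Among the 9654 probes that exceeded background on 2 arrays or more, which include 12 of the 13, 18.3% were called, 10.2% lower and 8.12% higher. The median difference of the 13 probes was -0.22 on the log2 scale, and that of all probes was 0.0011. Restricted to probes above background in this way, the medians were -0.13 for the 12 member probes and 0.023 for all. In whole liver, fewer cells of a type and less RNA per cell cannot be told apart.

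Sequence upstream of the start site is shown for the 3 genes with a called probe, to set these genes side by side; for Acadl only 1 of its 2 bright probes was called. Each run holds the 250 bases before the annotated start (RefSeq, GRCm38.p6), at chr5:30155003-30155252 on the plus strand for Hadhb, chr16:21787835-21788084 on the minus strand for Ehhadh and chr1:66863310-66863559 on the minus strand for Acadl. Capitals mark the GC box GGGCGG, read on either strand.
Hadhb: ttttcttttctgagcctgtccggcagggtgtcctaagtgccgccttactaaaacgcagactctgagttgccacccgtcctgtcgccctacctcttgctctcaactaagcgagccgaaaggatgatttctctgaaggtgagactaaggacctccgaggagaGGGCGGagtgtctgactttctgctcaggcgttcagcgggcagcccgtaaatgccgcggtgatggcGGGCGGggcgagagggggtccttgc
Ehhadh: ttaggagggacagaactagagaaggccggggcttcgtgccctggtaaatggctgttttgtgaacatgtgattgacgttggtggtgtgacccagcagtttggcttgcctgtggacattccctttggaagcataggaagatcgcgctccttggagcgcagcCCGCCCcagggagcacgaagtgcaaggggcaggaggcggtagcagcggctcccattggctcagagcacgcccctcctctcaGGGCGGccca
Acadl: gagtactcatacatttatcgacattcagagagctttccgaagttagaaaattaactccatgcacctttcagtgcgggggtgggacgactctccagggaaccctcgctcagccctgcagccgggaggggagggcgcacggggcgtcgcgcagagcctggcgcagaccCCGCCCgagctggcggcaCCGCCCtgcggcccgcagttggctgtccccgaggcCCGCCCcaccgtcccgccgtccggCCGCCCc
The Hadhb stretch lies between Hadhb and Hadha, which are transcribed away from each other from start sites with 272 bases between them, so it is upstream sequence of both trifunctional protein genes. Windows of this length were held for 7 members, all but Acaa2, and for 32851 promoters in all. The GC box was found in 5 of the 7 (4 matches in Acadl, 2 each in Cpt2, Hadhb and Ehhadh, 1 in Hadha) and in 32.7% of all promoters. The Hadha match and the Hadhb match 85 to 90 bases upstream are the same bases, counted for both genes. GC content ran from 49.6% (Acadvl) to 68% (Acadl) in the 7 windows, with a median of 52.4% over all promoters, and enrichment was not tested. The GC box was thus present in all 3 genes with a called probe and also in Cpt2, which was not called, while Acadm and Acadvl had none. The direct repeat that PPAR-alpha binds with its partner RXR, a pair of AGGTCA hexamers 1 base apart, was in 0 of the 7 windows and in 0.0335% of all promoters, searched on both strands. This exact repeat, in 11 of the 32851 promoters, is too rare for a 0 in 7 windows to be informative. Looser forms of the repeat were not searched. The single hexamer AGGTCA was in 2 of the 7, Acadm and Acadvl, and in 14.0% of all promoters. The element TCAAGGTCA of oestrogen-related receptors was in 0 of the 7 and in 0.387% of all. The box CCAAT was in the Ehhadh window, 34 to 38 bases upstream on the minus strand, and in 33.8% of all promoters. CCGGAAGT, an ETS factor element, was in the Cpt2 window and in 2.88% of all promoters. For CACGTG, the NRF1 element and TATAAA there were 0 matches in the 7 windows, against 6.02%, 3.74% and 12.4% of all promoters. These matches describe the letters of the windows only.

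The KO arrays were brighter than the control arrays before normalisation. Median intensity was 203.4 and 206.3 on the KO arrays, against 144.9 and 136.9 on the control arrays. The peak of the intensity distribution, where unexpressed probes lie, was at 180.0 and 181.0 in KO, against 127.8 and 124.1 in control. All values below are therefore log2 of quantile-normalised intensity plus an offset of 16, unless an intensity is named, and a difference is KO minus control on that scale. A probe was above background over a log2 value of 7.84, the most frequent value plus 3 SD. Rock1, the targeted gene, read 8.06 and 7.91 on the KO arrays and 8.51 and 8.51 on the control arrays, a difference of -0.53 (limma adjusted p = 0.0181), and its intensities overlapped between the groups. The Rock1 call did not survive leaving out control replicate 1 (adjusted p = 0.0911), control replicate 2 (0.0995) or KO replicate 2 (0.0961) in limma.

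Cpt2, the inner-membrane carnitine palmitoyltransferase that returns acyl groups to coenzyme A in the matrix, did not pass the test. Its values were 13.06 and 13.07 on the KO arrays and 13.04 and 12.75 on the control arrays. Both KO arrays lay above both control arrays, by a small margin over control replicate 1. The difference was 0.17 (95% interval -0.14 to 0.48, limma adjusted p = 0.539), and 0.02 without control replicate 2.

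Acyl-CoA dehydrogenases start each turn and differ in the chain length they take. Acadvl, the membrane-bound enzyme for very long chains, read 13.09 and 12.95 in KO and 13.09 and 12.77 in control. Its groups overlapped, with a difference of 0.09 (95% interval -0.23 to 0.41, limma adjusted p = 0.787) that ran from -0.074 without control replicate 2 to 0.25 without control replicate 1. Acadm, the medium-chain enzyme that is deficient in the most familiar inherited disorder of this pathway, was read by a pair of bright probes. Probe ILMN_2810473 read 14.59 and 14.41 in KO and 14.84 and 14.60 in control, a difference of -0.22 (95% interval -0.47 to 0.03, limma adjusted p = 0.288). Probe ILMN_1256019 read 11.59 and 11.50 in KO and 11.75 and 11.94 in control, a difference of -0.30 (95% interval -0.63 to 0.04, limma adjusted p = 0.287). On each Acadm probe both KO arrays were below both control arrays, though neither difference passed the test.

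Acadl, the long-chain dehydrogenase that is prominent in rodent tissues, gave different readings on its probes. Probe ILMN_2783519 read 8.85 and 9.01 on the KO arrays and 9.67 and 9.57 on the control arrays, with no overlap. This probe fell by 0.70 (SE 0.14, 95% interval -1.01 to -0.38, limma adjusted p = 0.0125). Its intensities were 505 and 553 in KO and 815 and 548 in control, which overlap. Its limma adjusted p was 0.0904 without control replicate 1, 0.0686 without control replicate 2 and 0.0521 without KO replicate 1, with differences from -0.75 to -0.61. It kept its call without KO replicate 2 (0.0163). Probe ILMN_2689473, the brightest of the gene over the 4 arrays, read 9.71 and 9.52 in KO and 9.40 and 9.93 in control. There the KO arrays lay within the range of the control arrays, and the difference was -0.05 (95% interval -0.45 to 0.36, limma adjusted p = 0.917). Probe ILMN_2735084 was not above background on any array and read 7.31 and 7.34 in KO and 7.58 and 7.63 in control. Between the bright probes, the change on ILMN_2689473 was 0.65 above that on ILMN_2783519, with an exact two-sided permutation p of 0.333, the smallest that 2 against 2 arrays allow. With the mean of its 3 probes Acadl differed by -0.34 and was not called (limma adjusted p = 0.109).

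**Figure D1:**
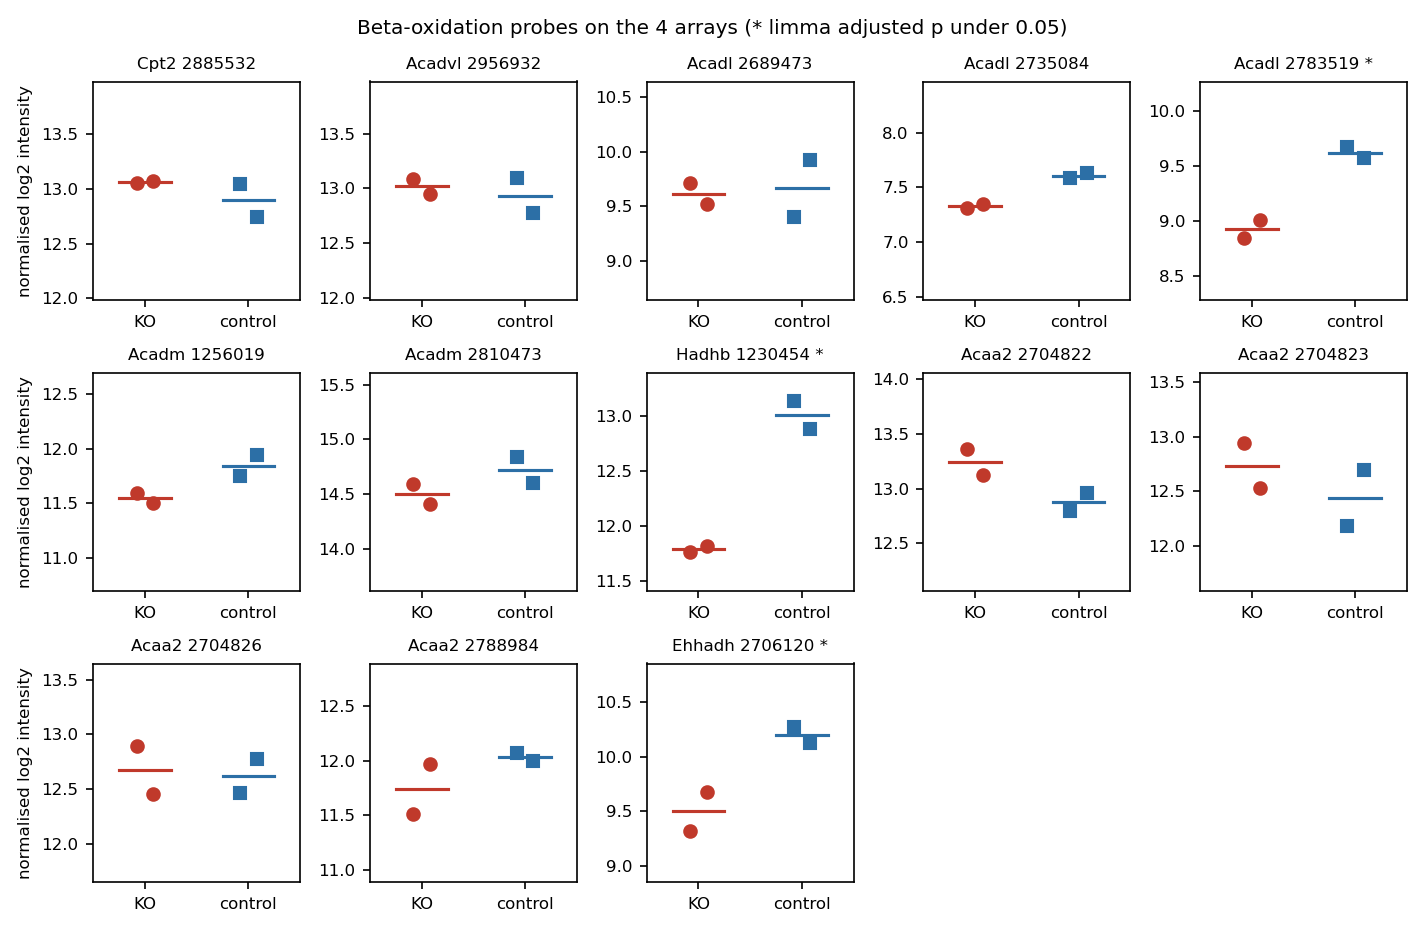
Normalised log2 intensity of the 13 probes on each array, with KO arrays as red circles, control arrays as blue squares and a line at each group's mean; every vertical axis spans the same range of log2 units. The largest gap is that of Hadhb, at 11.76 and 11.82 in KO and 13.14 and 12.89 in control, and a star marks the 3 called probes.

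Hadhb, the beta subunit of the trifunctional protein, carries the long-chain thiolase that cleaves the shortened acyl-CoA. Its intensities were 3947 and 3898 on the KO arrays and 9337 and 5659.6 on the control arrays. They did not overlap even before normalisation, although the KO arrays were the brighter ones, and Hadhb was the single one of the 13 probes lower in KO on that scale. On all probes 2.24% were lower and 84.6% higher in KO without overlap of the intensities, and on probes above background 5.94% and 62.2%. Of the 13 probes, 6 were higher in this way. After normalisation Hadhb averaged 11.79 ± 0.05 in KO and 13.01 ± 0.18 in control (log2, SD, n = 2 arrays each). The difference was -1.23 (SE 0.15, 95% interval -1.55 to -0.90, limma adjusted p = 0.000783). On the whole array 100 probes had a difference further below 0. Left-out arrays moved the Hadhb difference between -1.35 and -1.10 (limma adjusted p between 0.000709 and 0.0169). Hadhb has only this probe, so no other probe of the gene could be set beside it. The alpha subunit Hadha, which carries the hydratase and hydroxyacyl-CoA dehydrogenase activities, had no probe, and the planned comparison of both subunits was not possible.

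The Hadhb change was also set against that of the other 11 member probes above background, as a difference within each array. This comparison was not planned. Hadhb had the lowest difference of the 13 probes, so every gap had to be negative. All 11 gaps use the same Hadhb values and are not independent. The result lay between -1.59 and -0.53 log2 units, and for all 11 the KO arrays did not overlap the control arrays. For each the exact two-sided permutation p was 0.333, the smallest possible here, and adjustment over the 11 leaves it at 0.333. The smallest gap was to Ehhadh (-0.53) and the largest to Acaa2 probe ILMN_2704822 (-1.59).

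Acaa2, the soluble mitochondrial thiolase for medium and short chains, had 4 bright probes and none was called. Probe ILMN_2704822 read 13.36 and 13.12 in KO and 12.80 and 12.96 in control, so the KO arrays were higher. Its difference was 0.36 (95% interval 0.06 to 0.67, limma adjusted p = 0.149). Probe ILMN_2704823 read 12.94 and 12.53 in KO and 12.18 and 12.69 in control, a difference of 0.30 (95% interval -0.12 to 0.72, adjusted p = 0.411 by limma). Probe ILMN_2704826 read 12.90 and 12.45 in KO and 12.46 and 12.77 in control, a difference of 0.06 (95% interval -0.32 to 0.44, adjusted p = 0.889 by limma). On these last probes the groups overlapped. Probe ILMN_2788984 read 11.51 and 11.97 in KO and 12.07 and 12.00 in control, with the KO arrays lower by a narrow margin. Its difference was -0.29 (95% interval -0.67 to 0.09, limma adjusted p = 0.368). The change on ILMN_2788984 was compared with that on each of the other 3. ILMN_2704822 exceeded it by 0.65 (exact two-sided permutation p = 0.333, the smallest possible), ILMN_2704823 by 0.59 and ILMN_2704826 by 0.35 (exact permutation p = 0.667 for each, with overlapping arrays). Thus 3 of the 4 Acaa2 probes had differences above 0 and 1 below, and their mean was 0.11 (limma adjusted p = 0.703).

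**Figure D2:**
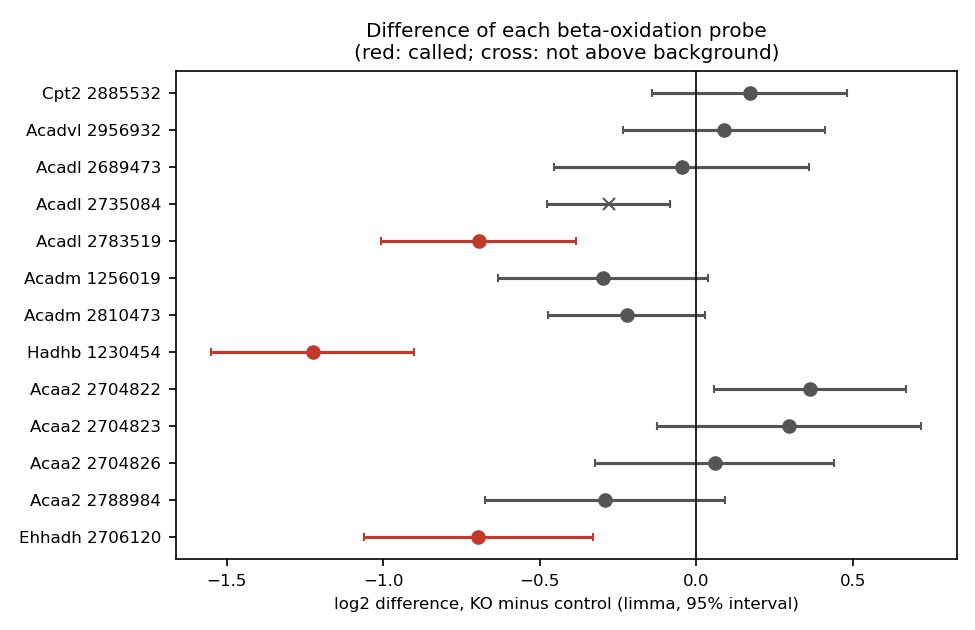
Log2 difference, KO minus control, of each of the 13 probes with its 95% interval from limma; red marks the 3 called probes and a cross the Acadl probe that was not above background. Hadhb lies at -1.23, Ehhadh and Acadl probe ILMN_2783519 at -0.70, and the other 9 probes above background between -0.30 and 0.36.

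Ehhadh, the peroxisomal L-bifunctional enzyme that hydrates enoyl-CoA and oxidises the product, acts on dicarboxylic fatty acids and is strongly induced by PPAR-alpha agonists in mouse liver. It read 9.33 and 9.68 on the KO arrays and 10.27 and 10.13 on the control arrays, with no overlap. The difference was -0.70 (SE 0.17, 95% interval -1.06 to -0.33, limma adjusted p = 0.0261). The intensities, 712 and 889.6 in KO and 1269.8 and 789.9 in control, overlapped. Ehhadh was not called without control replicate 1, where limma gave the highest adjusted p (0.159), without control replicate 2, or without KO replicate 1 (0.127). Without KO replicate 2 it was called at -0.88.

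Across the 13 probes, 7 had both KO arrays below both control arrays after normalisation, 2 had them above and 4 overlapped. Over all probes the shares without overlap were 25.8% lower and 26.1% higher, and over probes above background 30.7% and 33.8%. The 9 probes above background that were not called had differences from -0.30 to 0.36, and their 95% intervals reached from -0.67 to 0.72.

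**Figure D3:**
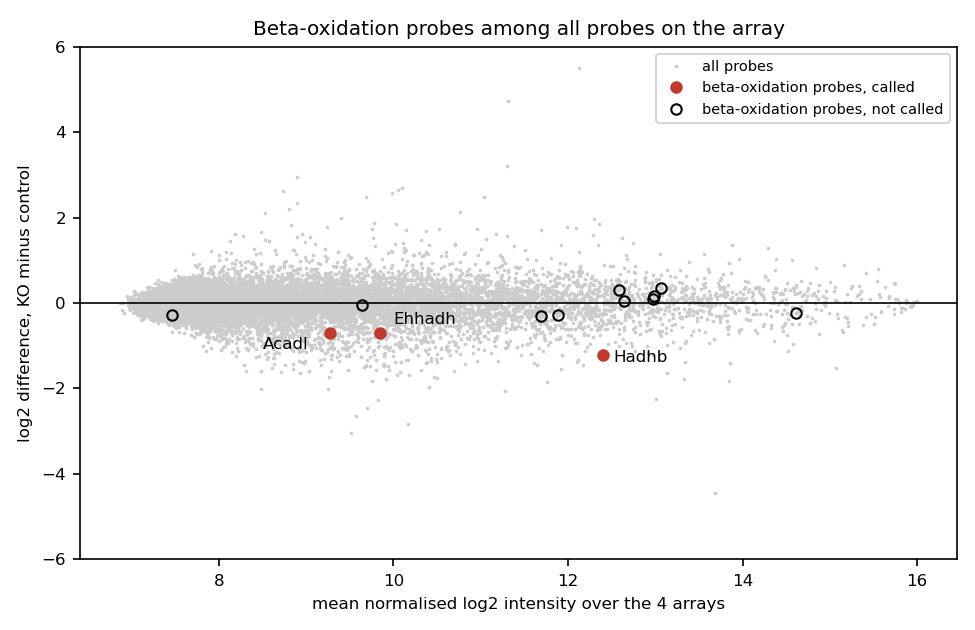
Log2 difference, KO minus control, against mean normalised log2 intensity over the 4 arrays for all 25697 probes (grey), with the called member probes in red and the others as open circles. Hadhb at -1.23 lies among bright probes, while Ehhadh and the called Acadl probe, at -0.70, are dimmer.

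Other genes of fatty acid oxidation were read by their brightest probe. Of 75 listed genes 66 were measured, 7 were called higher, 8 lower and 51 were not called, where 4.2% of all genes were called higher and 4.63% lower. Of the 66, 56 were above background on 2 arrays or more. Among all probes above background in this way, 8.12% were called higher and 10.2% lower, which is the closer share for these genes. The median difference of the 66 was -0.02. Their counts were 1 higher without control replicate 2, 4 higher without KO replicate 2 and 3 lower without control replicate 1.

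Among 10 other enzymes of the mitochondrial spiral, 0 rose and 2 fell. Acadsb, the dehydrogenase for short branched chains that also serves isoleucine breakdown, read 11.05 and 11.23 in KO and 12.16 and 12.23 in control. It fell by 1.06 (SE 0.15, limma adjusted p = 0.00183) and was called in all 4 fits that left out an array. Hsd17b10, a mitochondrial dehydrogenase of short hydroxyacyl chains, also fell (-0.73, limma adjusted p = 0.0151), a call kept in 2 of those 4 fits. Of 6 auxiliary enzymes for unsaturated fatty acids, 0 rose and 2 fell. The enoyl-CoA isomerase gene Eci2 read 11.24 and 10.98 in KO and 12.12 and 11.94 in control (difference -0.92, limma adjusted p = 0.0057), and the dienoyl-CoA reductase gene Decr1 differed by -0.74 (adjusted p = 0.0164). Their calls were kept in 3 and 2 of the 4 fits.

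The electron transfer flavoprotein takes electrons from the acyl-CoA dehydrogenases, and none of its 3 genes was called by the brightest probe. Etfa read -0.17 and Etfb 0.09 (limma adjusted p of 0.362 and 0.650). Of the other 3 bright probes of Etfa, ILMN_1237075 and ILMN_2800655 were called lower (-0.89 and -0.95, limma adjusted p of 0.00139 and 0.00141), while ILMN_2699167 read -0.16 (0.615).

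Of 10 genes of activation and carnitine transport, 1 was called higher and 2 lower, and 1 of those called lower, Crot, lay at background. Acsl3, a long-chain acyl-CoA synthetase gene, rose by 0.62 (limma adjusted p = 0.0294), a call kept in 1 of 4 fits without an array and lost with the mean of its probes (0.267). Slc27a2, a very long-chain acyl-CoA synthetase gene, fell by 0.58 (limma adjusted p = 0.00878) and kept its call in 3 of 4 fits. The probe of Crot, the peroxisomal carnitine octanoyltransferase gene, was not above background on any array, so no change is read from its call. The other probes of Acsl3 were also not above background on any array, so the Acsl3 mean includes values at background. The Cpt1a probe, for the entry step before Cpt2, was likewise at background on all 4 arrays; it, Acaa1b and Ppara are given for their place in the pathway, after their values were seen.

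Peroxisomal genes other than Ehhadh went both ways, with 4 rises and 1 fall among 13. Abcd3, a transporter of fatty acyl groups in the peroxisomal membrane, read 14.47 and 13.78 in KO and 12.91 and 13.05 in control. It rose by 1.14 (SE 0.19, limma adjusted p = 0.00406) and was called in all 4 fits without an array, at 0.80 to 1.51. Nudt19, a coenzyme A hydrolase gene, rose by 0.81 (0.73 on its other probe, also called). Acox2, the acyl-CoA oxidase gene for branched chains and bile acid intermediates, rose by 0.53 (limma adjusted p = 0.0409), a call kept in 1 of 4 fits. Scp2, which encodes a peroxisomal thiolase and a sterol carrier protein, rose by 0.41 on its brightest probe and by 0.46 on another, while a further bright probe read -0.07. The Scp2 call was kept in 2 of 4 fits without an array. Scaling to the 75th percentile, with or without normexp, ended it (highest limma adjusted p = 0.828). Averaged over its probes Scp2 differed by 0.19 and was not called (limma adjusted p = 0.367). That mean includes a probe that was not above background on any array. Acaa1a, a peroxisomal thiolase gene, fell by 0.64 (limma adjusted p = 0.0105), and its close paralogue Acaa1b read 0.21 and was not called; probes of such paralogues may share transcripts, which makes these values uncertain.

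**Figure D4:**
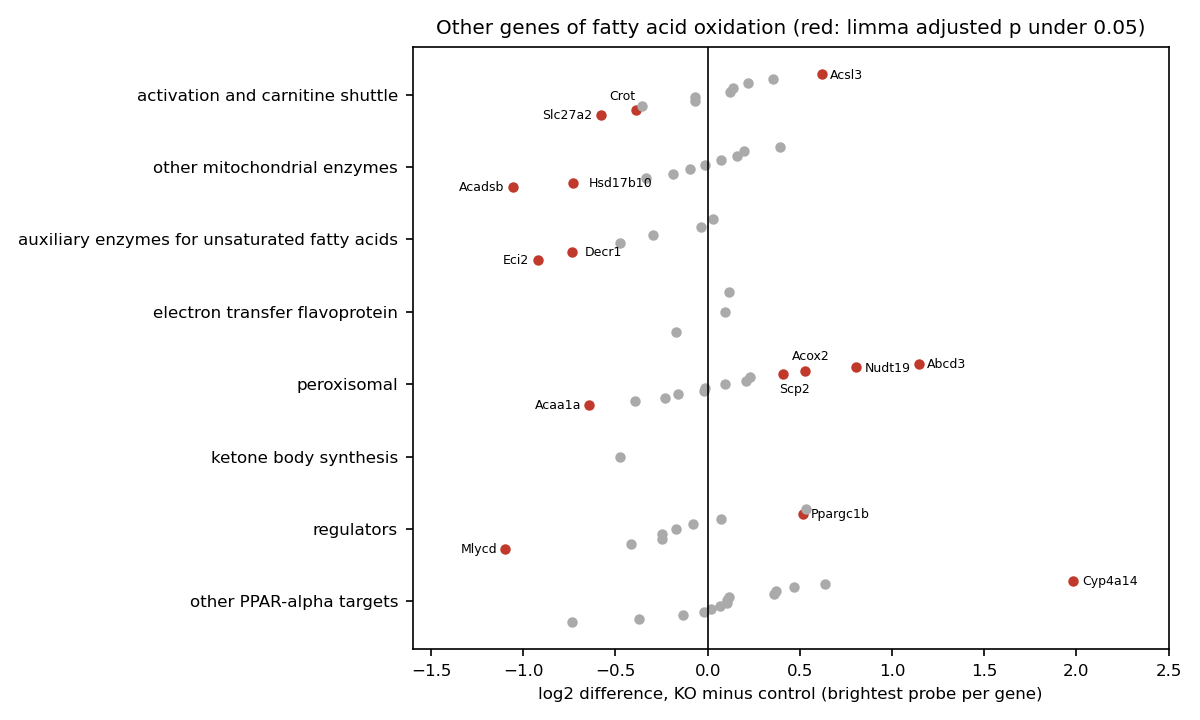
Log2 difference, KO minus control, of the 66 other genes of fatty acid oxidation by their brightest probe, grouped by role; red and labelled points are the 7 genes called higher and 8 called lower. Called genes were 2 of 10 in the mitochondrial and 2 of 6 in the auxiliary group, all lower. Of 13 peroxisomal genes, 4 were called higher and 1 lower. Several of these calls were lost when an array was left out, and Ehhadh, a peroxisomal member called lower, is not among the 66.

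Of 9 regulators, 1 rose and 1 fell. Mlycd, which encodes the decarboxylase that removes malonyl-CoA, the inhibitor of mitochondrial fatty acid entry, read 10.42 and 10.56 in KO and 11.74 and 11.43 in control. It fell by 1.10 (SE 0.17, limma adjusted p = 0.00252) and was called in all 4 fits without an array. Ppargc1b, a coactivator gene, rose by 0.51 (limma adjusted p = 0.0278), a call kept in 0 of 4 fits without an array. Ppara itself read -0.08 (95% interval -0.55 to 0.39, limma adjusted p = 0.876). The 1 measured gene of ketone body synthesis, Bdh1, read -0.48 and was not called (limma adjusted p = 0.0807), with 0.04 on its other bright probe.

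Of 14 other PPAR-alpha targets, 1 rose, 0 fell and 13 were not called. Among the 13, 3 (Fabp1, Vnn1 and Cidec) were not above background on any array, so no change can be read for them. Cyp4a10 and Ucp2 were listed but not measured. The gene that rose was Cyp4a14, a fatty acid omega-hydroxylase gene with close paralogues, at 10.08 and 10.69 in KO and 9.25 and 7.56 in control. Control replicate 2 was below the background limit of 7.84, so its value there, and the size of the difference, are not exact. Its difference was 1.98 (SE 0.40, limma adjusted p = 0.0121) and it was 1.15 and not called without control replicate 2 (adjusted p = 0.0542). With limma's robust variance model Cyp4a14 was not called either (adjusted p = 0.366). Angptl4, a lipase inhibitor gene, read -0.74 (limma adjusted p = 0.0548).

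Markers of the tissue and of other cells were read on the same arrays, by the sum of normalised intensity over each list. Hepatocyte markers summed to 219425 and 226725 in KO and 258580 and 274167 in control, with 1 of 9 called (Serpina1c, lower). The Alb probe was above background on 1 array and those of Tat and Fgb on 0. Kupffer cell markers summed to 2830 and 2934 in KO and 3874 and 3373 in control (2 of 6 called lower). The called markers were Clec4f (-0.63) and Adgre1 (-0.84), while Timd4 (-0.33) and Vsig4 (0.002) were not called. Cd5l and Marco were not above background on any array. Sinusoidal endothelial markers summed to 7108 and 6447 in KO and 12195 and 10758 in control (1 of 7 called lower). The called marker was Clec4g (-0.94), and the others, not called, lay between -0.29 (Tek) and -0.06 (Pecam1). Lyve1 and Kdr were not above background on any array. Stellate cell and fibroblast markers summed to 11487 and 10918 in KO and 14014 and 12130.3 in control (1 of 8 called lower). Cholangiocyte markers summed to 885 and 969.7 in KO and 720.3 and 740.4 in control (2 of 4 called higher), with Krt7 and Krt19 not above background on any array. Lymphocyte, muscle and adipocyte lists had 1 of 6 (Ms4a1, higher), 0 of 4 and 0 of 4 called. In the lymphocyte and muscle lists 0 markers were above background on 2 arrays or more, and Ms4a1 was on 1 array. No change is therefore read from those lists. For comparison, 8.12% of all probes above background were called higher and 10.2% lower, and 4.2% and 4.63% of all genes. A sum gives most weight to the brightest probes, and members of every list except the endothelial had differences on both sides of 0. Median log2 differences were -0.20 for hepatocyte, -0.27 for Kupffer cell and -0.20 for endothelial markers. They were 0.014 for stellate cell and 0.25 for cholangiocyte markers. Any part of these marker values in the differences of the beta-oxidation genes was not tested.

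**Figure D5:**
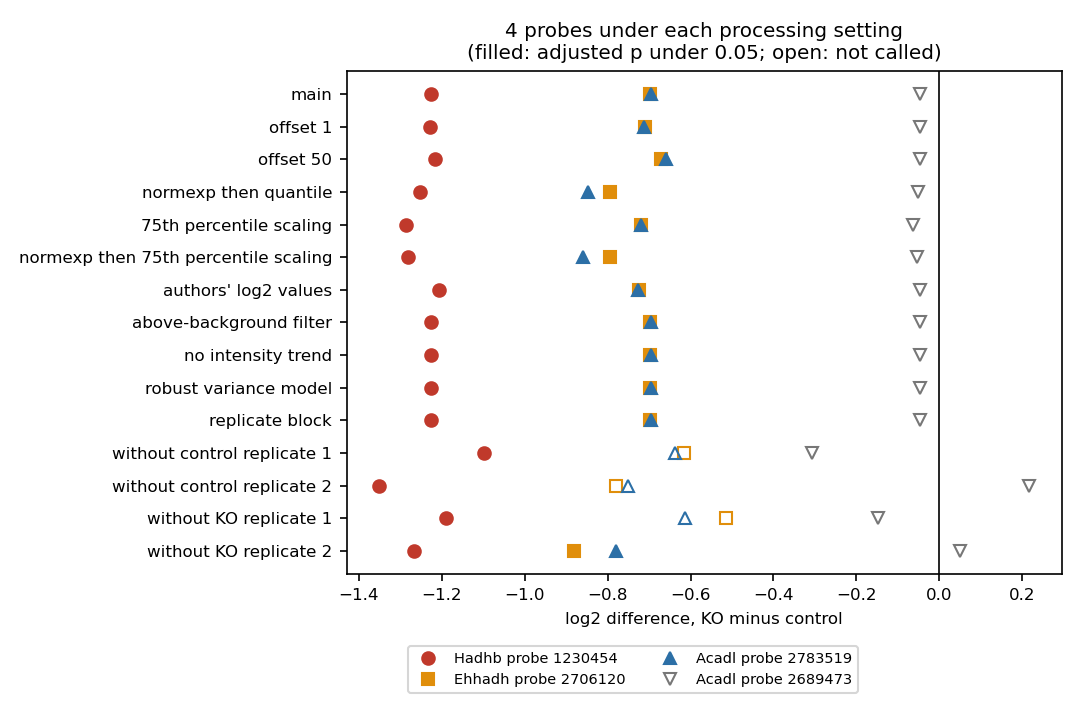
Log2 difference, KO minus control, of 4 probes under the main setting and each of the 14 alternatives, filled where the adjusted p was under 0.05. Hadhb is filled in every row, Ehhadh and Acadl probe ILMN_2783519 turn open in 3 of the 4 rows that leave out an array, and Acadl probe ILMN_2689473 is open throughout.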

How the data were processed

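Total RNA from liver was labelled with Cy3-streptavidin and read on 1-colour Illumina bead arrays, per the labels. The deposited intensities are linear bead summary values with no detection p-values and, from their lowest values, no background subtracted. Log2 values deposited by the authors keep the order of probes within each array (rank correlation 1) and have nearly equal medians of 7.632, 7.631, 7.629 and 7.628; their direction is that of the intensities, no gene centring was seen, and their scaling is unknown. Slide, scan date and software are not given in the sources used here.

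Intensities were quantile-normalised, an offset of 16 was added, and log2 values were fitted with limma 3.58.1 in R 4.3.3 (lmFit, eBayes with intensity trend, no block), two-sided, with Benjamini-Hochberg adjustment over all 25697 probes. Background stayed in, which shrinks differences of dim probes. The fit was tested on simulated data. Symbols came from the platform annotation (23978 probes with 1 symbol, 0 with several, 1719 with none), and 23962 probes matched a RefSeq table of GRCm38.p6, with 0 member symbols changed. The members, lists and rules were chosen with earlier results of these data known. Named were every member probe and, of each other list, called genes and the 2 with the smallest p; exceptions are marked where they stand. Replicate numbers were not used as a block: with 2 pairs and no stated pairing, the deviations of same-numbered arrays correlated at -0.057 over all probes. Alternatives covered offset, background correction, scaling, the authors' values, a filter, the variance model, the block, the probe per gene, the threshold and each array left out. Figures used matplotlib 3.10.9.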

Additional observations from a re-analysis of the deposited data

How the results depend on the processing

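Leaving out 1 array in turn, the probes of the 8 genes called lower numbered 1 to 3 and those called higher 0. The genes called lower by their brightest probe numbered 1 to 2. Of the other genes of fatty acid oxidation, 1 to 8 were then called higher and 3 to 9 lower; without control replicate 2, 1 was higher, and without control replicate 1, 3 were lower. Averaging the probes of each gene gave 4 higher. The higher calls lost were those of Acsl3, Scp2 and Acox2 (limma adjusted p of 0.267, 0.367 and 0.0541). The Acsl3 and Scp2 means include probes at background, while the Acox2 difference stayed at 0.53. The fits without an array have fewer arrays; the cause of the lower count with averaged probes was not tested. The differences of Acaa2 probe ILMN_2704826, Acadl probe ILMN_2689473 and Acadvl, none called, changed sign when an array was left out, over ranges of -0.17 to 0.29, -0.31 to 0.22 and -0.074 to 0.25. Single values past 0 were -0.091 for that Acaa2 probe without control replicate 1 and 0.050 for that Acadl probe without KO replicate 2. Over the 10 other settings Hadhb stayed between -1.29 and -1.21, Ehhadh between -0.79 and -0.67 and Acadl probe ILMN_2783519 between -0.86 and -0.66, all called. Normexp before scaling to the 75th percentile moved the median of all probes to 0.11, and the Hadhb difference there was -1.28. With the replicate block the counts were 3 lower among the 13 probes, and 9 higher and 9 lower among the other genes; it changed no call of the 13. The planned difference between Hadhb and Hadha was not run, since Hadha had no probe. The choice of leaving out an array with 1 left in its group assumes that the lone array varies like the others. The mean-of-probes count for the member genes was added after the data were seen. Near background, as for the dim Acadl probe and Cpt1a, no change can be read.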

Other observations

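The PPAR-alpha targets that accompany beta-oxidation varied between the control arrays. Fgf21, a hepatic hormone gene, read 8.91 and 8.45 on the KO arrays and 10.19 and 7.92 on the control arrays. Acot1, an acyl-CoA thioesterase gene, read 11.76 and 12.17 in KO and 12.53 and 10.69 in control. Pdk4, the pyruvate dehydrogenase kinase gene, read 8.97 and 8.86 in KO and 8.65 and 7.91 in control. With Cyp4a14, these were the 4 of 11 such targets above background whose control arrays differed by 0.5 log2 units or more, all higher in control replicate 1. Over all probes above background 3.88% differed by that much between the control arrays, and 1.74% were higher by that much in control replicate 1. Between the KO arrays 3 of the 11 differed by that much, against 5.20% of all probes above background, with Cyp4a14 and Cyp4a31 higher in KO replicate 2 and Angptl4 higher in KO replicate 1. Of the 13 beta-oxidation probes, 0 differed by that much between the KO arrays and 2 between the control arrays, Acaa2 probe ILMN_2704823 (12.18 and 12.69) and Acadl probe ILMN_2689473 (9.40 and 9.93). The count of 4 depends on the limit. Plin2, Cyp4a31 and Acot4 fell just under it, at 0.499, 0.476 and 0.463 for control replicate 1 minus replicate 2. Acot2 went the other way (-0.19). The genes named here and the limit of 0.5 were picked after their values were seen, and no test was run.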
